A study of Mus musculus with 6 samples.

Results

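Messenger RNA of the FoxO transcription factors and of 6 genes that FoxO factors are known to control was followed in mouse leukemia cells given CBD or 4-hydroxytamoxifen (4-OHT). The genes are Foxo1, Foxo3 and Foxo4, and the target genes Ccng2, Txnip, Irs2, Sesn3, Klf2 and Cited2. They were taken by symbol, and all 9 were found among the 21881 genes of each of the 2 deposited tables. Of these, 9 were tested by the authors with CBD and 8 with 4-OHT, since Klf2 was marked as not tested there.

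All 6 samples are leukemia cells of strain C57/B6X129SV, transformed by AE9a, a shortened AML1-ETO fusion protein. The cells of every group, controls included, carry Id1 alleles flanked by loxP sites and the tamoxifen-activated recombinase CreER. The labels place 2 samples in each group: untreated control, CBD at 15 µM for 16 h, and 4-OHT at 0.1 µM for 48 h. They name no vehicle, no 4-OHT arm without loxP sites, and neither the promoter that drives CreER nor the number of leukemias or cultures. CBD is described in the design text as an inhibitor of Id1, with the abbreviation left unexplained. The tables give 1 FPKM value per group (fragments scaled to transcript length and sequencing depth), so 4 values per gene: a control and a CBD column in one table, another control and a 4-OHT column in the other. The number of libraries behind each control column is not given. No SD, n or interval can therefore be set beside a value, the depth is unknown, and "rose" or "fell" means that q in the authors' deposited table was under 0.05. Log2 folds compare treated with control after adding 0.1 FPKM to each value.

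FoxO proteins are forkhead transcription factors that growth factor signalling holds out of the nucleus. AKT and SGK kinases, downstream of PI3K, phosphorylate them, 14-3-3 proteins then bind them, and they are exported and degraded. When that signalling drops, FoxO proteins enter the nucleus and switch on genes of cell cycle arrest, cell death, oxidant defence, autophagy and nutrient sensing. In blood formation they are known for keeping stem cells quiescent and protected from oxidants. FoxO activity is set mainly by phosphorylation and location, which mRNA levels do not measure.

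Of the 4 target genes that rose with 4-OHT, Txnip, Irs2 and Cited2 are shown by the 250 bases before their annotated start, because the results below turn on them. Ccng2 is described by its matches alone, since a longer annotated transcript covers its window. The sequences are from RefSeq (GRCm38.p6), a later build than the mm9 of the tables, and 8 of the 9 genes had an entry. Capitals mark matches to 4 motifs, searched on both strands: GTAAACA (reverse complement TGTTTAC), the element that FoxO factors bind; CAAAACA (reverse complement TGTTTTG), the core of the insulin response sequence; CACGTG, the E-box; and the carbohydrate response element, a pair of E-box-like repeats bound by the glucose sensor MondoA and its relative ChREBP. The E-box and that last motif can overlap. The sequence of Txnip is chr3:96557707-96557956 (plus strand), that of Irs2 chr8:11008930-11009179 (minus strand) and that of Cited2 chr10:17722978-17723227 (plus strand).
Txnip: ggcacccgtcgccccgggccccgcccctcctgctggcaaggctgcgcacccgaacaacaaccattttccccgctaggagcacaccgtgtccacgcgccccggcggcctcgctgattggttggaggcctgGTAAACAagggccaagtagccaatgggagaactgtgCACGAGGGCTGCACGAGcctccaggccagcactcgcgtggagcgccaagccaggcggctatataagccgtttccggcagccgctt
Irs2: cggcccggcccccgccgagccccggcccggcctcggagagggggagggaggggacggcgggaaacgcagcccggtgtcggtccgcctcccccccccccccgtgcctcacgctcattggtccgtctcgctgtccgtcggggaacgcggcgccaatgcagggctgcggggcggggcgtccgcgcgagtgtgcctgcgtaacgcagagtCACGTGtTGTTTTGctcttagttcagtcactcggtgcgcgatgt
Cited2: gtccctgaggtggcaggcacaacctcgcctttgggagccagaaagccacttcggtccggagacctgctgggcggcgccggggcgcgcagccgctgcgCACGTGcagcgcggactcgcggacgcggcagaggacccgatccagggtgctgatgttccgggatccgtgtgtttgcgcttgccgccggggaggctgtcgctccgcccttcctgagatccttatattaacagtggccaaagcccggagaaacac

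Txnip held GTAAACA 121 bases before its start and a carbohydrate response element 85 bases before it. Among all 32851 windows of the same length, 3.17% hold the first and 0.0457% the second. Ccng2 held CAAAACA 16 bases before its start, and Irs2 held TGTTTTG on the printed strand 37 bases before its own; 5.56% of windows hold this motif. An E-box, which 6.02% of windows hold, stood 44 bases before the start of Irs2 and 153 bases before that of Cited2. The windows of Foxo1, Foxo3, Sesn3 and Klf2 held none of the 4. A match describes letters in this window and is not evidence of binding.

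FPKM is scaled to transcript length, so levels can be ranked between genes, with a limit for the CBD column. Longer transcripts had lower CBD folds (Spearman rho −0.42 over 5356 genes, no test made). Txnip was the most abundant, at 88.1 to 455 FPKM over the 4 columns, followed by Cited2 at 81.1 to 127, and these ranges overlap. Foxo3 spanned 14.9 to 26.8 FPKM, Ccng2 5.19 to 23.1, Foxo4 6.23 to 16.7 and Irs2 2.84 to 9.05. The order within this middle group is not fixed, since each range overlaps its neighbour. Sesn3 spanned 0.886 to 6.66 FPKM, Foxo1 0.950 to 1.53 and Klf2 0.0688 to 0.426, which is below 1 FPKM in every column.

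**Figure D1:**
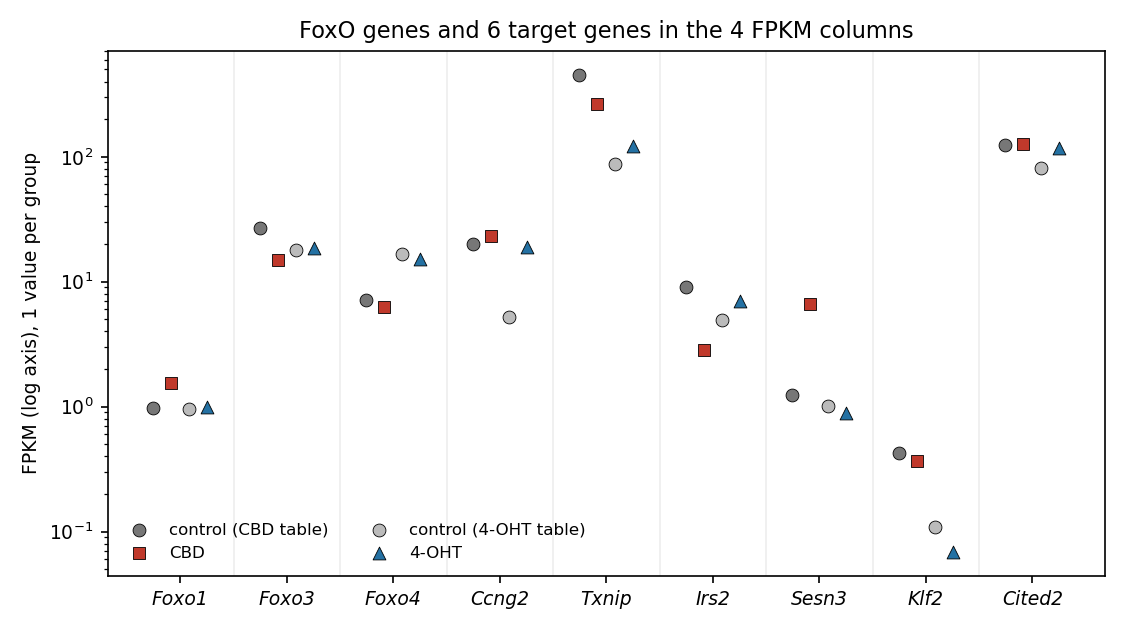
FPKM on a log axis for the 3 FoxO genes and 6 target genes, with 1 point for each of the 4 group columns and no error bars because no values of single libraries are in the tables. Txnip spans 88.1 to 455 FPKM and Klf2 stays below 1 FPKM in all 4 columns, while Ccng2 stands apart only in the control of the 4-OHT table, at 5.19 FPKM.

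The labelled cell type was checked against marker genes. Of 12 blood and leukemia markers, 8 were at 1 FPKM or more in each of the 4 columns, among them the receptor gene Kit (up to 95.6 FPKM) and Sfpi1, the gene of PU.1 (28.6 to 51.3 FPKM). Ptprc, the gene of the leukocyte antigen CD45, was at 0.0466 to 0.417 FPKM and Mpo, the gene of myeloperoxidase, at 0.0151 to 0.0662. The CBD column differed from the other 3 in brain markers. The summed level of 10 neuron genes was 185.7 FPKM with CBD and 8.96 to 21.1 in the other columns, that of 7 astrocyte genes 56.5 against 2.51 to 3.42, and that of 7 oligodendrocyte genes 232 against 46.7 to 49.0; 9, 6 and 6 of them rose. Among the neuron genes 1, 4 and 4 are listed at 0 in the CBD table's control, the 4-OHT table's control and the 4-OHT column. Macrophage genes (7, summed) stood at 21.1 FPKM with CBD and at 1.17 to 1.64 elsewhere, and 3 of 6 tested rose. The 8 lymphocyte genes summed to at most 0.809 FPKM in any column, and the 8 endothelial and stromal genes to at most 3.98, with CBD. Id1 itself went from 15.4 to 0.741 FPKM with 4-OHT (q = 0 in the authors' deposited table) and from 34.2 to 11.95 with CBD (q = 0.133 there).

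Foxo1, Foxo3 and Foxo4 themselves passed neither test. Foxo1 (chromosome 3, 52072259 to 52154031 in mm9, the whole gene), which encodes the family member best known from liver and lymphocytes, was at 0.974 FPKM in the control and 1.53 with CBD (log2 fold 0.61, q = 0.575 in the authors' deposited table). In the other table it was at 0.950 in the control and 0.987 with 4-OHT (log2 fold 0.05, q = 0.808 in the authors' deposited table). The CBD value was the highest of the 4 and the other 3 lay close together.

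Foxo3 (chromosome 10, 41905592 to 41996548), the main FoxO gene of blood stem cells, was the most abundant of the 3 by its lowest value and its highest. It was at 26.8 FPKM in the control and 14.9 with CBD, a log2 fold of −0.84 that missed the threshold (the authors' deposited table gives p = 0.0144, q = 0.0539). With 4-OHT it was at 18.6 FPKM against 17.8 in that table's control (log2 fold 0.06, q = 0.493 in the authors' deposited table). The CBD column was the lowest of the 4. Its log2 fold is −0.26 against the control of the 4-OHT table, and −0.42 once the trend of CBD folds with transcript length is removed (longest annotated transcript 6848 bp).

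Foxo4 (chromosome X, 98449867 to 98456212), the X-linked member, differed more between the tables than within them. It was at 7.13 FPKM in the control and 6.23 with CBD (log2 fold −0.19, q = 0.828 in the authors' deposited table). It was at 16.7 FPKM in the control and 15.3 with 4-OHT (log2 fold −0.13, and the authors' deposited table gives p = 0.0484, q = 0.0967). Both columns of the 4-OHT table were thus above both columns of the CBD table. Foxo6, the remaining family member, known mainly from brain, was at 0.0107 FPKM in the control and 0.307 with CBD (q = 0.0248 in the authors' deposited table) and is listed at 0 in the 4-OHT table. Its rise stands beside that of the brain markers above, and their part in it was not tested.

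Among the 6 targets, 4 rose with 4-OHT. With Foxo1, Foxo3, Foxo4 and Sesn3 not passing, this was 4 of 8 tested genes, while 27.2% of all tested genes rose and 16.9% fell. None of the 8 fell in the authors' Cuffdiff test, and 1, Foxo4, was lower at an unadjusted p under 0.05. The median log2 fold of the 8 was 0.26, against 0.05 over all 11232 tested genes.

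Ccng2 (chromosome 5, 93696599 to 93705257) encodes cyclin G2, an unconventional cyclin that slows the cell cycle. It was at 5.19 FPKM in the control and 18.9 with 4-OHT, a log2 fold of 1.85 and q in the authors' deposited table is given as 0. In the CBD table it was at 20.04 FPKM in the control and 23.1 with CBD (log2 fold 0.20, q = 0.680 in the authors' deposited table). The control of the 4-OHT table was the low value, and the other 3 columns lay between 18.9 and 23.1 FPKM.

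Txnip (chromosome 3, 96361880 to 96365780) encodes the thioredoxin-interacting protein, which restrains glucose uptake and binds thioredoxin. It was at 88.1 FPKM in the control and 122 with 4-OHT, a log2 fold of 0.47 and q in the authors' deposited table is given as 0. In the CBD table it fell, with 455 FPKM in the control and 266 with CBD, a log2 fold of −0.77 (q = 1.15e-14 in the authors' deposited table). The controls differed 5.16-fold, more than either treated column from its own control, and both columns of the CBD table were above both of the 4-OHT table. The test of each table therefore gave opposite directions, while the treated columns set against the other table's control gave log2 folds of 1.60 with CBD and −1.90 with 4-OHT, each opposite to its own test.

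Irs2 (chromosome 8, 10986964 to 11008430) encodes an adaptor that links insulin and cytokine receptors to PI3K. It rose from 4.96 to 6.95 FPKM with 4-OHT (log2 fold 0.48, q = 1.54e-07 in the authors' deposited table). It was at 9.05 FPKM in the control and 2.84 with CBD, a log2 fold of −1.64 that missed the threshold (the authors' deposited table gives p = 0.0134, q = 0.0511). The CBD value was the lowest of the 4, and against the control of the 4-OHT table its log2 fold is −0.78.

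Cited2 (chromosome 10, 17443034 to 17445480) encodes a CBP and p300 partner that blood stem cells need. It rose from 81.1 to 117 FPKM with 4-OHT (log2 fold 0.53, q = 0 in the authors' deposited table). In the CBD table it was at 124 FPKM in the control and 127 with CBD (log2 fold 0.04, q = 0.934 in the authors' deposited table). As for Ccng2, 3 columns lay close together and the control of the 4-OHT table was lower.

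Sesn3 (chromosome 9, 14080745 to 14130578) encodes sestrin 3, a stress protein that restrains mTORC1. It was at 1.24 FPKM in the control and rose to 6.66 with CBD, a log2 fold of 2.34 (q = 0.000804 in the authors' deposited table). With 4-OHT it was at 0.886 FPKM against 1.01 in the control (log2 fold −0.17, q = 0.610 in the authors' deposited table). The CBD column stood alone, and its log2 fold was 2.61 over the other table's control and 3.10 once the trend of CBD folds with length was removed (longest annotated transcript 9125 bp). That trend was fitted on genes at 10 FPKM or more in both controls, a level that Sesn3 does not reach. The brain and macrophage markers rose in the same column, and their part in the rise of Sesn3 was not tested. In these bulk samples, more cells of a type and more RNA per cell cannot be told apart.

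Klf2 (chromosome 8, 74842961 to 74845553) encodes a Krüppel-like factor that promotes quiescence in T cells. It was at 0.426 FPKM in the control and 0.366 with CBD (log2 fold −0.18, q = 0.921 in the authors' deposited table), and at 0.109 and 0.0688 FPKM in the control and 4-OHT columns of the other table, where it was not tested. Both values of the CBD table were above both of the 4-OHT table. With CBD, then, 1 of the 9 genes rose (Sesn3) and 1 fell (Txnip), against 18.4% of all tested genes that rose and 7.74% that fell. At an unadjusted Cuffdiff p under 0.05, 1 was higher (Sesn3) and 3 were lower (Foxo3, Txnip and Irs2), against 3360 and 1493 of all tested genes. A gene without a CBD call is not shown to be unchanged. Irs2 missed the threshold with CBD at a log2 fold of −1.64 (q = 0.0511) and passed with 4-OHT at 0.48 (q = 1.54e-07), both in the authors' deposited tables. The median log2 fold of the 9 was −0.18, and that of all 13751 tested genes 0.29.

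**Figure D2:**
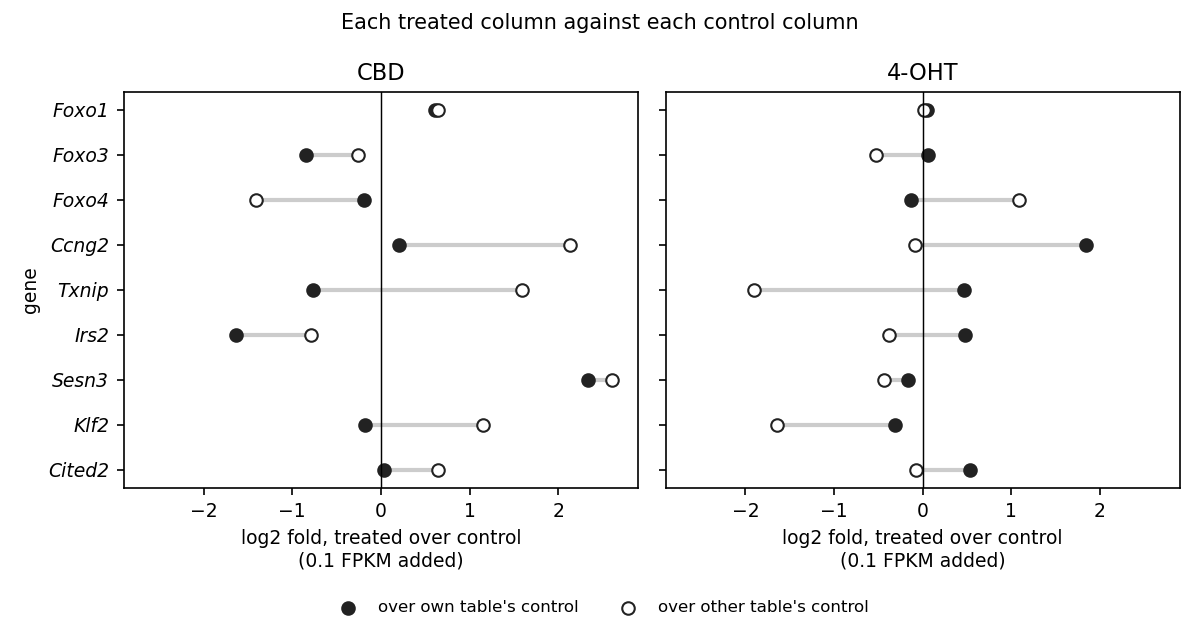
Log2 fold of each treated column over the control of its own table (filled circles) and over the control of the other table (open circles), with CBD on the left and 4-OHT on the right, 1 row per gene; the cross-table ratios have no test. For Ccng2, Txnip, Irs2 and Cited2 with 4-OHT the filled circle lies right of 0 and the open circle left of it.

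Because each treated column can be set against each control column, every gene has 4 ratios. With 4-OHT, none of the 4 genes that rose exceeded the control of the CBD table: their log2 folds over it were −0.08 for Ccng2, −1.90 for Txnip, −0.38 for Irs2 and −0.08 for Cited2. Of all genes that rose with 4-OHT and were tested in both tables, 49.1% did not exceed it. The 4-OHT value lay between the controls in 6 of the 9 genes, above both in 1 (Foxo1) and below both in 2 (Sesn3 and Klf2), and over all genes tested in both tables these shares were 53%, 30.6% and 16.4%. The CBD value lay above both controls in 4 (Foxo1, Ccng2, Sesn3 and Cited2), below both in 3 (Foxo3, Foxo4 and Irs2) and between them in 2 (Txnip and Klf2), against 42.7%, 35.2% and 22.1% of all genes. At 1.5-fold or more beyond the nearer control, 3 genes were left with CBD (Foxo1 and Sesn3 higher, Irs2 lower), with or without 0.1 FPKM added. With 4-OHT 1 was left, Klf2, on FPKM with nothing added; it was not tested there, and with 0.1 FPKM added it was 1.24-fold lower, short of that limit.

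The control columns were compared directly, without a test. Of the 8 genes tested in both tables, 7 were higher in the control of the CBD table and 1, Foxo4, was lower, with a median log2 ratio of 0.60. Over all 10867 genes tested in both, 5350 were higher and the median was −0.01. The log2 ratio was 2.37 for Txnip and 1.93 for Ccng2, both past the 95th percentile of all genes (1.25), and −1.22 for Foxo4, past the 5th (−0.96). It was 0.85 for Irs2, 0.61 for Cited2, 0.59 for Foxo3, 0.28 for Sesn3 and 0.03 for Foxo1.

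By list, the log2 ratio of the controls had a median of 1.37 for FoxO targets of the cell cycle, with 10 of 10 genes higher in the control of the CBD table, 1.46 for targets of lymphoid cells and trafficking (5 of 5) and 1.02 for targets of cell death (5 of 6). It was smaller for targets of autophagy and ubiquitin ligases (0.26, 7 of 10), targets of oxidant defence and metabolism (0.07, 5 of 8) and the PI3K, AKT and SGK genes (0.20, 13 of 19). Regulators of FoxO export and turnover had a median of −0.10, with 8 of 21 higher. All 6 tested genes of the MondoA and thioredoxin list were lower in the control of the CBD table, with a median of −0.43. Mlxip, the gene of MondoA, was at 5.19 and 4.16 FPKM in the control and CBD columns and at 10.6 and 9.73 in the control and 4-OHT columns, so it was lower in the table in which Txnip was higher.

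**Figure D3:**
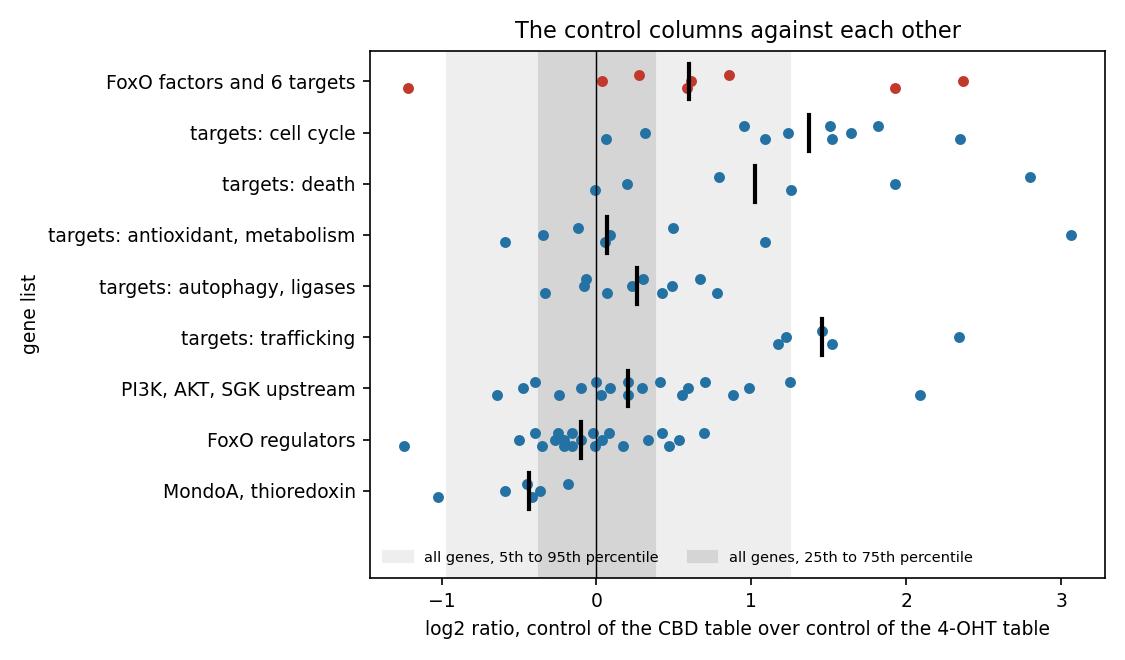
Log2 ratio of the control of the CBD table over the control of the 4-OHT table (0.1 FPKM added) for each gene of 9 lists tested in both tables, with 1 point per gene, a black bar at each list's median and grey bands for all 10867 genes. The medians are 1.37 for cell cycle targets and 1.46 for trafficking targets, and −0.10 for FoxO regulators.

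A wider list of 58 FoxO target genes, the 6 above left out, was read the same way. It does not record whether FoxO factors raise or lower each gene, so a rise or fall has no set meaning for FoxO activity. With 4-OHT, 22 of 40 tested genes rose and 4 fell, with a median log2 fold of 0.24, against 27.2% rising and 16.9% falling over all genes. Only 2 of the 22, Bnip3 and Sesn1, also exceeded the control of the CBD table. The other 20 did not, where 49.1% of all genes that rose and were tested in both tables did not. Of the 4 that fell, 1, Ccnd2, was also below that control. Bnip3, a mitophagy receptor that hypoxia also induces, rose from 17.8 to 80.6 FPKM and was at 31.0 in the other control. Sesn1, a sestrin gene that p53 also controls, rose from 10.96 to 18.1 FPKM and was at 11.4 in the other control.

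By role, 7 of 10 cell cycle targets rose with 4-OHT and 1 fell. Over all tested genes 27.2% rose and 16.9% fell, which is the measure for each list that follows. Gadd45b, a stress sensor, rose from 2.36 to 6.41 FPKM and the antiproliferative gene Btg1 from 1.29 to 2.77, while the cyclin gene Ccnd2 fell from 119 to 107.6. Of 6 death genes, 4 rose and none fell (none at an unadjusted p under 0.05 either), with the BH3-only gene Bmf at 0.620 and 1.52 FPKM. Ddit4, an inhibitor of mTORC1, rose from 13.4 to 44.8 FPKM, and the other control held 113 FPKM. In its oxidant defence and metabolism list 3 of 8 rose and 2 fell, the lipid flippase gene Atp8a1 from 23.4 to 20.03 FPKM and the mitochondrial superoxide dismutase gene Sod2 from 46.2 to 41.8.

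Among autophagy and ubiquitin ligase genes 3 of 10 rose with 4-OHT and 1 fell, where 27.2% of all tested genes rose and 16.9% fell. The 30% that rose here is near the share over all genes. The autophagosome gene Map1lc3b went from 45.5 to 54.5 FPKM, the mitophagy kinase gene Pink1 from 10.96 to 13.1 and Gabarapl1, another autophagosome gene, from 45.7 to 40.8. In the lymphoid and trafficking list 5 of 6 rose and none fell, also at an unadjusted p under 0.05. The integrin gene Itgb7 rose from 25.5 to 38.2 FPKM and Tsc22d3, the glucocorticoid-induced leucine zipper gene, from 10.7 to 15.7. The other control held 130 FPKM of Itgb7 and 29.6 of Tsc22d3.

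**Figure D4:**
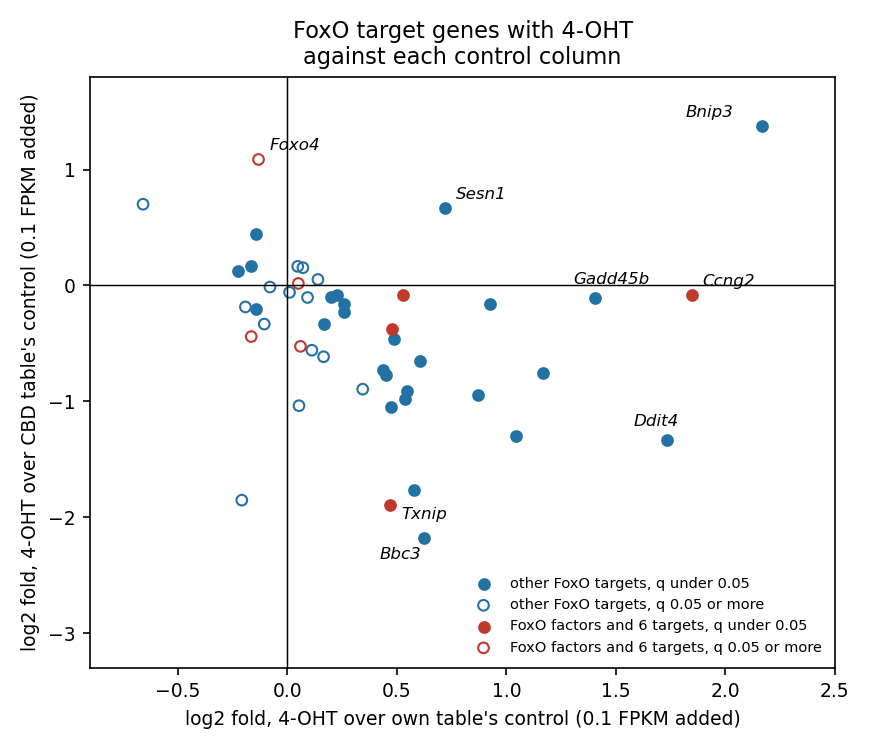
Log2 fold with 4-OHT over its own control (x axis) and over the control of the CBD table (y axis), with 1 point per tested gene, red for the FoxO genes and targets described singly and blue for the wider target list, filled where the authors' q is under 0.05. Bnip3 and Sesn1 are the filled points in the upper right, and Ccng2, Txnip and Ddit4 lie right of 0 and below it.

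With CBD, 10 of 46 tested genes of the wider list rose (18.4% of all genes did) and 2 fell (7.74% of all), with a median log2 fold of 0.36 against 0.29 over all genes. All 10 that rose also exceeded the control of the 4-OHT table, as did all but 3.29% of the genes that rose with CBD and were tested in both tables. The brain and macrophage markers rose in the same column, with summed neuron genes at 185.7 FPKM against 8.96 to 21.1 in the other columns, and their part in these rises was not tested. The CDK4 and CDK6 inhibitor gene Cdkn2b went up from 4.54 to 34.6 FPKM, and the CDK inhibitor gene Cdkn1a from 50.3 to 83.0. Among autophagy and ubiquitin ligase genes 3 of 11 rose: Pink1 from 14.7 to 36.3 FPKM, Gabarapl1 from 36.3 to 84.6 and Map1lc3b from 63.9 to 124. In oxidant defence and metabolism 3 of 11 rose: the catalase gene Cat from 53.4 to 102 FPKM, the peroxiredoxin gene Prdx5 from 94.2 to 178 and, below 1 FPKM, the metabolic coactivator gene Ppargc1a from 0.0679 to 0.425.

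The other 4 CBD calls were in the cell death, cell cycle and trafficking lists. The adaptor gene Tradd rose from 25.1 to 47.2 FPKM and Itgb7 from 129.8 to 226. The MYC antagonist gene Mxi1 fell from 12.1 to 6.24 FPKM and the forkhead gene Foxp1 from 16.1 to 7.78. Foxp1 with CBD was still above the 7.11 FPKM of the other control, and its log2 fold went from −1.04 to −0.54 with the trend of CBD folds with length removed.

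Upstream genes were called in both directions with CBD and in 1 direction with 4-OHT. Of 20 tested PI3K, AKT and SGK genes, 2 rose with CBD and 2 fell, against 18.4% and 7.74% of all genes. At an unadjusted Cuffdiff p under 0.05, 2 were higher with CBD and 5 lower, against 3360 and 1493 of all 13751 tested genes. Pik3ip1, an inhibitor of PI3K, rose from 2.15 to 6.84 FPKM. The growth factor receptor gene Igf1r fell from 16.8 to 5.52 FPKM and the PI3K regulatory subunit gene Pik3r1 from 17.1 to 10.2. With the length trend removed their log2 folds were −0.82 and −0.25, in place of −1.59 and −0.73. Akt1, an AKT kinase gene, was at 124 and 115 FPKM in the control and CBD columns (q = 0.783 in the authors' deposited table). With 4-OHT 10 of 21 rose and none fell (none at an unadjusted p under 0.05 either), against 27.2% and 16.9% of all genes. Among them were Igf1r, from 8.44 to 10.9 FPKM, the phosphatase gene Inpp4b, from 5.97 to 7.67, and, below 1 FPKM, Pik3ip1, from 0.428 to 0.880. Of these 10, 3 also exceeded the control of the CBD table and 7 did not, where 49.1% of all risers did not.

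Genes for FoxO export, modification and turnover fell with CBD in 4 of 21 cases and rose in 1, against 7.74% and 18.4% of all genes. The acetyltransferase genes Ep300 and Crebbp, whose products act on FoxO proteins, fell from 32.4 to 9.46 FPKM and from 7.91 to 2.71. The exportin gene Xpo1 fell from 86.3 to 46.4 FPKM and the deubiquitinase gene Usp7 from 46.6 to 21.8, while the deacetylase gene Sirt2 rose from 31.7 to 52.8. The 4 that fell were also below the control of the 4-OHT table, as were 994 of all 1065 genes that fell with CBD. Longer transcripts had lower CBD folds (Spearman rho −0.42 over 5356 genes; genes are not replicates, and no test was made). With that trend removed the log2 folds were −1.0 for Ep300, −0.75 for Crebbp, −0.53 for Xpo1 and −0.84 for Usp7, in place of −1.76, −1.51, −0.89 and −1.09. With 4-OHT 2 of 21 rose and 4 fell, against 27.2% and 16.9% of all genes. Among these were the acetyltransferase gene Kat2b from 7.07 to 9.45 FPKM, the 14-3-3 gene Ywhae from 365 to 414, the methyltransferase gene Prmt6 from 10.7 to 8.43 and the 14-3-3 gene Ywhag from 146 to 125.

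Relatives of the 6 targets were followed too. With 4-OHT 5 of 9 tested paralogs rose and 2 fell, against 27.2% and 16.9% of all genes. The arrestin-domain gene Arrdc2 rose from 2.82 to 5.78 FPKM, Arrdc1 from 11.02 to 13.6, Klf6 from 17.7 to 24.2 and Cited4 from 64.0 to 78.6, besides Sesn1. Each of these 4 was below the control of the CBD table, at 7.08, 14.0, 41.5 and 109 FPKM. Arrdc3 fell from 2.18 to 1.74 FPKM and Ccng1, cyclin G1, a p53 target, from 36.8 to 32.5. Neither was below the control of the CBD table, at 1.72 and 27.02 FPKM.

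With CBD 1 of 11 tested paralogs, Ccng1, rose (18.4% of all genes did), from 27.02 to 51.1 FPKM, and none fell in the authors' Cuffdiff test or at an unadjusted p under 0.05. Within the 4-OHT table Ccng1 thus fell while Ccng2 rose. Sesn2, the stress-induced sestrin gene, was at 63.0 and 47.03 FPKM in the control and CBD columns and at 20.3 and 18.6 in the control and 4-OHT columns, and Cited1 at 17.4, 14.6, 8.36 and 8.30 FPKM; neither passed a test. Irs1, Arrdc4 and Klf4 were below 1 FPKM in every column. In the MondoA and thioredoxin list, Txn1, thioredoxin, passed neither test. It was at 310 and 374 FPKM in the control and CBD columns (q = 0.466 in the authors' deposited table). In the control and 4-OHT columns it was at 466 and 442 (q = 0.291 there). Txnrd1, thioredoxin reductase, rose with CBD from 77.4 to 99.2 FPKM and fell with 4-OHT from 99.9 to 80.9, the reverse of Txnip in each table. Neither change held against the other table's control, at 99.9 FPKM for CBD and 77.4 for 4-OHT. Txn2, mitochondrial thioredoxin, fell with 4-OHT from 341 to 294 FPKM, and Txnrd2 rose from 27.2 to 30.9.

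For each gene the nearest pattern over the 4 columns was sought among genes tested in both tables at a mean of 1 FPKM or more, by Euclidean distance of centred log2(FPKM + 0.1). The nearest gene to Ccng2 was Bhlhe40 (distance 0.15), at 45.1, 55.6, 11.6 and 39.2 FPKM in the CBD table's control, CBD, the 4-OHT table's control and 4-OHT. The nearest to Txnip was Ppp1r15a (distance 0.19), at 92.1, 54.1, 15.4 and 22.0 FPKM in the same order. The others were Anapc11 for Foxo1 (0.038), Mnt for Foxo3 (0.028), Rnaseh2b for Foxo4 (0.058), Popdc2 for Irs2 (0.042), Stard5 for Sesn3 (0.21), Slc7a11 for Klf2 (0.16) and Dhx57 for Cited2 (0.038). With 4 values per gene these distances describe likeness only.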

How the data were processed

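RNA from 6 samples was sequenced. Per the submitters' processing notes, Bowtie 0.12.2, the build mm9 and Cuffdiff were used. Cuffdiff's settings, version and gene models are not stated there. The authors deposited FPKM values, 1 per group and table, and p-values and q-values for genes of status OK. Deposited q was recomputed by the Benjamini-Hochberg method and differed by at most 1.52e-06. Values of single libraries were not used here. Which spread the p-values measure is not known, since Cuffdiff's settings and the number of libraries behind each control column are not given. It may be technical, and it may hold little or no spread between samples. It may also differ between the tables, so their counts of genes that rose or fell are not on a common scale.

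Computed from these were log2 folds (0.1 FPKM added), cross-table ratios, which have no test, counts and medians of lists, and motif matches (Python 3.11.15, pandas 2.3.3). Counting and the length trend were tested on simulated data. The trend is the median fold in 20 bins of the longest GENCODE vM21 transcript where both controls reach 10 FPKM, with lengths for 89.3% of genes. It was also applied to genes outside that range, such as Foxo1, Sesn3, Igf1r, Foxp1 and Crebbp. Gene positions are those of the tables in mm9, with 1 added to each start, since end minus start equals the RefSeq gene length in 6275 genes and the length minus 1 in 432. Symbols renamed since (Spi1, Map2, Tfeb, Adgre1) were matched through RefSeq synonyms, and Depp was not matched. Each of the 9 genes is named, as are all paralogs and up to 2 genes per direction, comparison and list with the largest fold at q under 0.05 and at least 1 FPKM; 1 gene that meets this rule is not reported here. Xpo1, Usp7, Akt1, Mlxip, Txn1 and Ppargc1a, Map1lc3b with CBD and Pik3ip1 with 4-OHT were named after their values were seen. Members and lists were chosen with earlier results of these data known. Alternatives were a q of 0.01, a minimum of 2-fold, a filter at 1 FPKM, the other control, other pseudocounts, scaling by median or upper quartile, and the length trend.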

Additional observations from a re-analysis of the deposited data

How the results depend on the processing

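Against the other table's control column the log2 folds changed sign for 5 calls: Txnip with CBD (1.60), and with 4-OHT Ccng2 (−0.083), Txnip (−1.90), Irs2 (−0.38) and Cited2 (−0.078). Required to lie beyond that column too, the counts of changed genes went from 2 to 1 with CBD and 4 to 0 with 4-OHT for the FoxO genes and their 6 targets, from 26 to 3 for the other targets with 4-OHT and from 16 to 5 for upstream genes and regulators with 4-OHT. Over all genes, 1564 of 3055 that rose with 4-OHT and 662 of 1896 that fell met this requirement. With CBD 2494 of 2533 and 994 of 1065 did. At least 2-fold changes were 1 and 1 among the FoxO genes and 6 targets, 5 with CBD (in place of 12) and 5 with 4-OHT among the other targets, and 0 with 4-OHT among upstream genes. At 1.5-fold beyond the nearer control, on FPKM with nothing added, 3 of 7 and 1 of 3 genes were left; the latter, Klf2, is 1.24-fold lower with 0.1 FPKM added. A q of 0.01 and a minimum of 1 FPKM kept every total within 1.5 times but not every direction: at a q of 0.01 the other targets that rose with CBD went from 10 to 6 and those that fell with 4-OHT from 4 to 1, and the upstream genes and regulators that rose with CBD went from 3 to 1, as they did at 1 FPKM. Pseudocounts of 0.01 and 1 FPKM moved none of the 18 folds by over 1.5 times. Scaling to the same median or upper quartile changed the sign of 1, Cited2 with CBD (−0.03 with the upper quartile), which passed no test. Removing the length trend moved Foxo1 (1.37) and Sesn3 (3.10) with CBD and changed the sign of Cited2 with CBD (−0.04). Foxo1 and Sesn3 are below the 10 FPKM at which the trend was fitted. No paired analysis was possible because the tables give 1 value per group, which also prevents leaving out a replicate. Depth is unknown, so values under 1 FPKM, such as those of Klf2, have no detection limit.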
